A study of Arabidopsis thaliana with 21 samples.

Results

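The comparison described here sets decapitated Arabidopsis thaliana hypocotyls that received auxin against decapitated hypocotyls that received the carrier alone. It holds 6 of the 21 arrays of the series, the 3 arrays of decapitated plants with auxin and the 3 of decapitated plants without it, chosen by their titles. All 6 arrays came from wild-type plants of the strain Col-0 at 2 weeks of age, and their hypocotyls, the stem between root and seed leaves, were collected 24 h after treatment. Both groups had lost the shoot tip and both carried lanolin, a wool wax with under 10% ethanol, on the plant. In one group the lanolin held indole-3-acetic acid (IAA), the main natural auxin, at 3 mg per mL. Each array holds pooled RNA from 120 to 150 hypocotyls, so a value is the average of a pool and not of a plant. The study as a whole asked how shoot tip removal, an auxin transport inhibitor and max mutations change the hypocotyl, and its 3 intact wild-type arrays, which also carried lanolin, are given beside the values below. The comparison asks what auxin supplied in place of the shoot tip changes in the stem below.

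Auxin is made mainly in young shoot tissue and moves down the stem from cell to cell. Inside the nucleus it joins TIR1/AFB receptors to Aux/IAA repressors, which are then destroyed, so that ARF transcription factors can act on their targets. Among the fast targets are Aux/IAA genes themselves, GH3 genes whose enzymes couple IAA to amino acids, and SAUR genes. In the hypocotyl auxin also promotes wall loosening, division in the cambium and, at high supply, the founding of adventitious roots, which uses LBD transcription factors.

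IAA changed the levels of 5205 of 22746 probe sets (22.9%) at an adjusted p below 0.05 in limma, a linear model fitted to all probe sets. Of these 2508 (11%) were raised and 2697 (11.9%) lowered. Values are on the deposited log2 scale, where 1 unit is a doubling. A difference is given ± the SE of the model, for 3 arrays in each group. The variance of a probe set was taken from all arrays of the series, not from the compared arrays alone. The SE can therefore be smaller or larger than the spread of the compared arrays would give. It was 0.35 for LBD16 and 0.39 for PUCHI, whose IAA arrays had SDs of 1.17 and 1.29. For GH3.3 it was 0.85, with SDs of 0.52 without IAA and 0.15 with it. The raised changes reached further, with 266 probe sets raised and 119 lowered by at least 3. The values of the 2 groups did not overlap for 47.3% of all probe sets (15% higher and 32.3% lower with IAA), so lack of overlap alone carries little weight here. The median difference of all probe sets was -0.04, and it became -0.13 when array medians were subtracted, a scaling under which the split turned to 2191 raised and 4836 lowered. In pooled stem RNA fewer cells of a type and less RNA per cell cannot be told apart. Only 1551 probe sets name 1 gene that has a symbol, and loci without a symbol in the reference are given by code with no role.

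**Figure D1:**
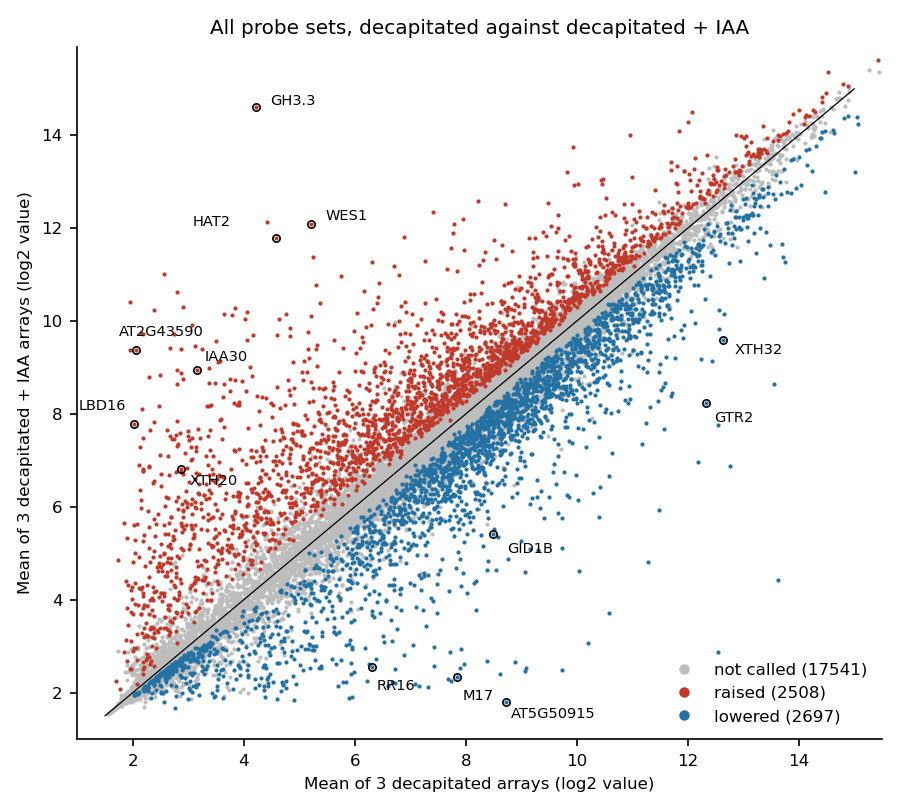
Mean log2 value of each of 22746 probe sets in the 3 decapitated arrays (horizontal axis) and the 3 decapitated arrays with IAA (vertical axis), with the line of equality. Raised probe sets (2508, red) reach from the background level near 2 to high values, as for LBD16 and AT2G43590, while lowered ones (2697, blue) include genes such as M17, RR16 and AT5G50915 that end near background.

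Within the 6 arrays the medians lay between 6.11 and 6.26, correlations within a group between 0.985 and 0.994, and correlations between the groups between 0.950 and 0.965. No array was identical to another. Values below 3.5 pile up near background on this scale. The shoot apex markers CLV3 and FD and the root markers EXPA7 and EXPA18 lay below 3.5 in all 6 arrays. The leaf markers LHCB4.2 (-0.21 ± 0.26) and RCA (-0.88 ± 0.42, adjusted p = 0.13, and 0.027 with the replicate number as a block) were not called. These are too few of the listed markers to judge the tissue make-up.

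The GH3 gene GH3.3 (AT2G23170) had the highest difference of the named genes. It read 3.94, 3.91 and 4.83 in the decapitated arrays and 14.43, 14.69 and 14.70 with IAA. The IAA arrays lay far above both the decapitated arrays and the intact ones, which read 4.02, 4.77 and 5.81, and the difference was 10.38 ± 0.85 (adjusted p = 3.1e-07). Of 5 measured genes of the list of GH3 enzymes and auxin inactivation, 3 were raised and 1 lowered, with a median of 3.56. Over all 13286 genes named by a probe set, 9.91% were raised and 10.9% lowered. WES1 (AT4G27260), a second enzyme that couples IAA to amino acids, read 6.06, 5.34 and 4.24 without IAA and 12.04, 12.04 and 12.18 with it. All 3 of its IAA values also lay above the intact values of 9.11, 7.74 and 8.61, and it rose by 6.87 ± 0.55. GH3.1 (AT2G14960) stood near background at 2.09, 2.07 and 2.09 and reached 5.26, 5.61 and 6.05 (3.56 ± 0.12).

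The family did not move as 1. GH3.9 (AT2G47750) read 6.11, 6.02 and 4.72 in decapitated plants and 3.3, 3.29 and 3.29 with IAA, a fall to the background level in every array (-2.32 ± 0.43, adjusted p = 0.00094). GH3.17, which also couples IAA to amino acids, stood at -0.31 (adjusted p = 0.5). IAGLU (AT4G15550), an enzyme that joins IAA to glucose, was lowered by a small amount (-0.85 ± 0.22). Its call was lost without IAA replicate 3 (adjusted p = 0.06) and in a fit of the 6 arrays alone (0.082). The other IAA glucosylation genes measured, UGT74D1 and UGT84B1, stood at -0.99 and -0.03 and were not called. With the replicate number as a block 2 of the 3 genes were lowered.

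Of 7 measured Aux/IAA repressor genes 2 were raised and none lowered, against 9.91% and 10.9% of all named genes. IAA30 (AT3G62100) read 3.59, 2.91 and 2.95 without IAA and 8.86, 8.84 and 9.13 with it (5.79 ± 0.23). IAA29 (AT4G32280) read 2.13, 2.1 and 2.13, then 6.56, 6.96 and 7.17 (4.77 ± 0.12, adjusted p = 3.5e-13). In intact plants IAA30 was measured between 6.48 and 6.90, while IAA29 stayed near background at 2.11 to 2.13, so the pair differed in the plant that kept its tip. IAA20, IAA31, IAA33 and IAA34 lay below 3.5 in all 6 arrays, and IAA18 stood at 0.52 (adjusted p = 0.32).

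HAT2 (AT5G47370), an auxin-induced homeodomain-leucine zipper factor, read 5.08, 5.02 and 3.65 without IAA and 11.54, 11.71 and 12.11 with it (7.21 ± 0.35). Its intact values of 9.43, 8.97 and 9.31 lay between the groups without overlap. WAG2 (AT3G14370), a kinase that acts on PIN auxin exporters, went from 2.29, 2.25 and 2.32 to 6.64, 7.17 and 6.79 (4.58 ± 0.38), above the intact values of 3.28, 3.28 and 3.53. The YUC genes of auxin synthesis YUC2, YUC4, YUC6 and YUC11 all lay below 3.5 in the 6 arrays, and a call of -0.08 for YUC4 concerned background values and was lost when any array other than decapitated replicate 2 was left out.

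**Figure D2:**
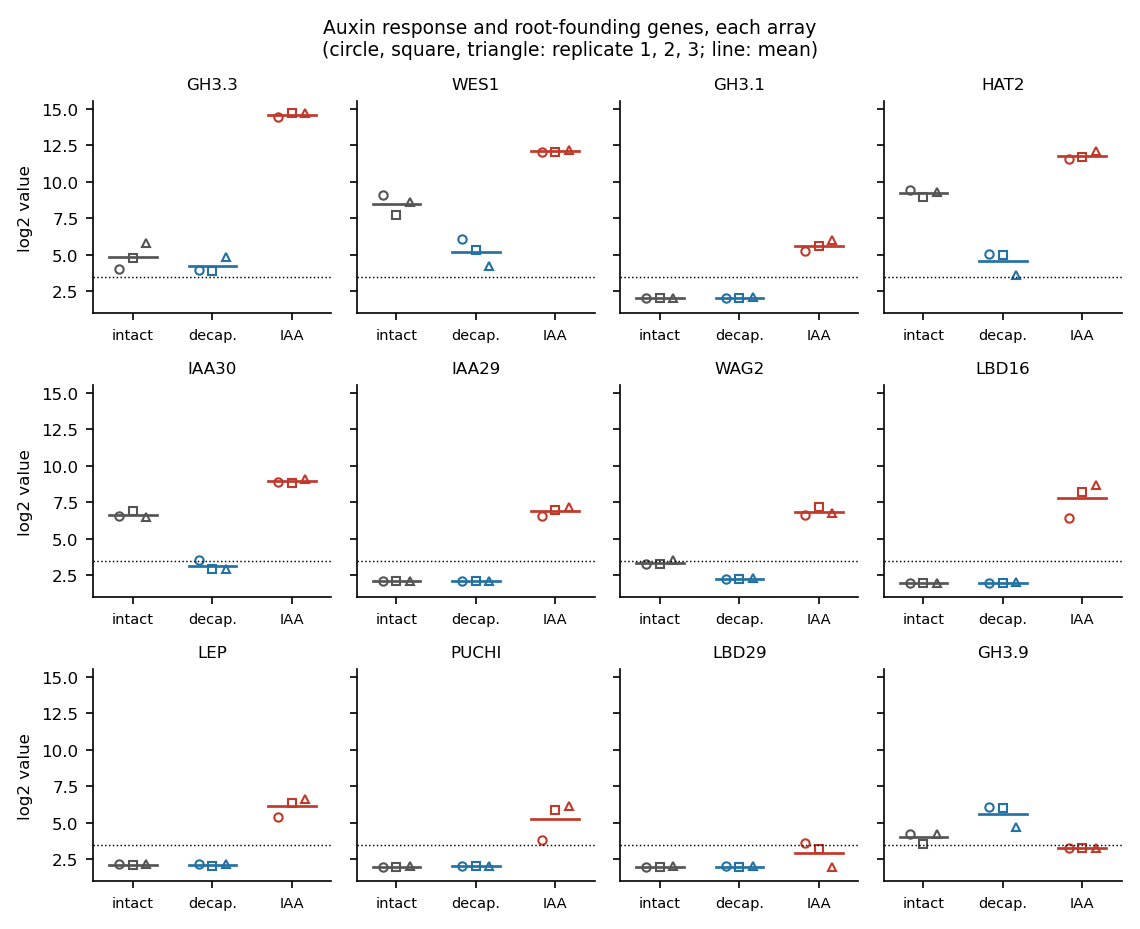
Log2 value of 12 genes in each array of intact, decapitated and decapitated plants with IAA, with symbols for replicates 1, 2 and 3, a line for the mean and a dotted line at 3.5. GH3.3, IAA29, LBD16, LEP and PUCHI are high with IAA alone, HAT2, WES1 and IAA30 are also high or intermediate in intact plants, LBD29 is at background in IAA replicate 3, and GH3.9 is lowest with IAA.

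Several genes in a list of root founding and lateral organ factors were raised from the background level. Of its 7 measured genes 5 were raised and none lowered (1 was lowered with array medians subtracted), with a median of 0.95. Of all named genes 9.91% were raised. In narrower lists 1 of 2 measured genes of lateral and adventitious root founding was raised, and 2 of 2 LBD factors. The comparison of IAA with intact plants, which uses the same IAA arrays and called 8.67% of all probe sets (3.89% higher and 4.78% lower with IAA), gave 5 higher members of the 7. LBD16 (AT2G42430), which starts lateral and adventitious roots, read 2.02, 1.99 and 2.05 without IAA and 6.46, 8.24 and 8.67 with it (5.77 ± 0.35, adjusted p = 1.1e-08). The 3 intact arrays read between 1.97 and 2.01. LEP (AT5G13910), a factor of the AP2/ERF family, went from 2.19, 2.08 and 2.19 to 5.43, 6.37 and 6.62 (3.99 ± 0.46). PUCHI (AT5G18560), an AP2/ERF factor of the early root primordium, went from 2.05, 2.04 and 2.03 to 3.80, 5.88 and 6.17 (3.25 ± 0.39). For these 3 genes IAA replicate 1 was the lowest of the IAA arrays and still above every other array.

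LBD29 (AT3G58190), a close relative of LBD16 in root initiation, read 3.64, 3.25 and 2.01 with IAA against 2.02, 2.00 and 2.03 without it. IAA replicate 3 was therefore at background, and the groups overlapped (0.95 ± 0.25). UPB1 (AT2G47270), which sets the boundary between division and elongation in the root tip, read 4.02, 4.1 and 2.85 with IAA against 2.94, 2.75 and 2.91 without it (0.79 ± 0.22). Both calls were lost without IAA replicate 1 or without IAA replicate 2, where 3 members of the list remained raised, and in the fit of the 6 arrays alone. CR4 and BBM, which act in root stem cells and embryo identity, stood at -0.05 and -0.02 near background.

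In 69 probe sets all decapitated arrays lay below 3.5 and all IAA arrays at 6 or above, and in 15 of these the intact arrays also lay below 3.5. The 5 of the 15 that name a gene are LBD16, IAA29, XTH20, ATPMEPCRD and AT2G43590. AT2G43590 read 2.05, 2.04 and 2.07 without IAA, 9.45, 9.24 and 9.41 with it and 2.03 to 2.04 in intact plants (7.31 ± 0.04). XTH20 (AT5G48070), an enzyme that cuts and rejoins xyloglucan and is known from the healing of cut stems, went from 2.94, 2.80 and 2.89 to 6.70, 7.09 and 6.64 (3.94 ± 0.09). ATPMEPCRD (AT2G43050), a pectin methylesterase, went from 2.55, 2.47 and 2.43 to 6.89, 8.28 and 6.18 (4.63 ± 0.41). None of these genes had a value above 3 in any of the 6 arrays without added auxin.

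Genes whose intact values all lay within 1 of the decapitated mean were raised in 450 cases and lowered in 758, among the 1257 genes raised and the 1399 lowered with groups that did not overlap. This limit is wide, since only 1379 of 2508 raised and 1054 of 2697 lowered probe sets moved by at least 1. The share of all genes within it was not counted, so the counts do not show how many genes decapitation left unmoved. Beside the genes above, the raised genes within this limit included AT3G24240 (2.2, 2.16 and 2.2 without IAA, then 5.37, 7.28 and 7.81). PAP20 (AT3G52780), of the purple acid phosphatases, read 4.33, 4.36 and 4.32 without IAA and 6.94, 7.54 and 7.20 with it (2.89 ± 0.24), while the intact arrays read 4.34 to 4.54. ATHSP22.0 (AT4G10250), a small heat shock protein, went from 2.80, 3.07 and 3.27 to 4.73, 7.75 and 5.72 (3.02 ± 0.49), with a wide spread among the IAA arrays, and lost its call in the fit of the 6 arrays alone (adjusted p = 0.068). These last 2 were among genes with a symbol singled out after their values were seen.

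Other genes with large rises were already high in intact plants. AT1G54020 read 2.74, 2.73 and 2.92 in decapitated plants, 10.53, 10.54 and 10.82 with IAA and 9.12 to 10.51 when intact (7.83 ± 0.48). AT1G12080 went from 5.57, 3.66 and 4.05 to 12.15, 11.83 and 12.43 (7.71 ± 0.41). SETH6 (AT2G47860), known from pollen tube growth, went from 2.90, 3.26 and 2.44 to 8.92, 8.74 and 8.99 (6.01 ± 0.22), with intact values of 8.26 to 8.44. In each of these 3 genes every decapitated array lay below every array of both other groups. The same held for AT5G50130, which rose by 7.40 ± 0.47, and AT3G19200, which rose by 6.98 ± 0.34. AT3G19200 was also higher with IAA than in intact plants, by 3.39.

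Wall genes changed in both directions, where 9.91% of all named genes were raised and 10.9% lowered. Of 18 measured expansins, which loosen walls at low pH, 6 were raised and 1 was lowered, and 8 lay below 3.5 in all 6 arrays. The median of the family was 0.03 and turned to -0.05 with array medians subtracted and lay at or just below 0 without IAA replicates 1 or 2 or decapitated replicates 2 or 3. EXPA15 (AT2G03090) read 6.76, 6.18 and 6.02 without IAA and 10.50, 10.23 and 10.05 with it (3.94 ± 0.46). EXPA4 (AT2G39700) went from 10.19, 10.73 and 10.50 to 13.10, 12.94 and 13.13 (2.58 ± 0.17). Both had IAA values close to the intact ones, which for EXPA4 read 13.15 to 13.26. Against intact plants 2 members were higher with IAA, EXPA20 and EXLB1, and 1 was lower. EXPA20 (AT4G38210) read 6.98, 7.19 and 7.66 with IAA, above the intact values of 5.39 to 5.94 as well as the decapitated ones (1.66 ± 0.19). EXLB1 (AT4G17030) read 9.06, 9.16 and 8.18 with IAA and 4.81 to 6.74 when intact. It was raised by 2.32 over decapitated plants, a call lost without IAA replicates 1 or 2 or decapitated replicates 2 or 3 (adjusted p up to 0.086) and with the 6 arrays alone (0.099). EXPA9 (AT5G02260) fell from 6.23, 5.60 and 5.13 to 3.2, 3.3 and 3.4 (-2.39 ± 0.50).

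Enzymes that act on xyloglucan split in the same way. Of 10 measured endotransglucosylase genes 2 were raised and 2 lowered, against 9.91% and 10.9% of all named genes. XTH32 (AT2G36870) fell from 12.45, 12.54 and 12.93 to 10.22, 9.55 and 9.03 (-3.04 ± 0.35), below the intact values of 10.58 to 11.22. EXGT-A3 (AT2G01850) fell by 0.92. XTH16 (AT3G23730) rose by 1.75, a call lost without IAA replicate 3 (adjusted p = 0.077) or decapitated replicate 1 (0.07). XTH19, also known from cut stems, stood at 2.04 and was not called (adjusted p = 0.074). CSLC5 (AT4G31590), a synthase of the xyloglucan backbone, rose from 6.51, 6.70 and 6.51 to 8.10, 8.13 and 8.08, and ATCSLC08 by 0.79, as 2 of 5 measured members of that family.

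Of 15 endoglucanase genes of the GH9 family 4 were raised, none was lowered and 10 lay below 3.5 throughout. The share raised over all named genes was 9.91%. GH9B13 (AT4G02290) went from 10.43, 10.13 and 9.22 to 13.88, 13.54 and 13.81 (3.81 ± 0.25), and GH9B8 (AT2G32990) from 6.60, 6.77 and 4.72 to 10.45, 9.94 and 10.12 (4.14 ± 0.51). GH9B7 rose by 1.11 and stayed 0.76 below the intact plants (adjusted p = 0.0014). Among 4 pectin methylesterase genes 2 were raised, ATPMEPCRD and PME61 (AT3G59010). PME61 went from 3.16, 2.97 and 3.00 to 7.5, 6.96 and 6.56 (3.96 ± 0.36), above its intact values of 3.93 to 4.62.

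Of 4 measured genes of xylan synthesis, which builds secondary walls, 3 were raised, against 9.91% of all named genes. Against intact plants 3 of the 4 were lower with IAA, with a median of -1.11. GUT2 (AT1G27440), a xylan backbone synthase, went from 5.58, 5.68 and 5.85 to 7.92, 6.98 and 7.26 (1.69 ± 0.22), while the intact arrays read 8.60, 8.04 and 8.46. IRX15-L (AT5G67210) went from 6.91, 6.19 and 5.14 to 9.10, 8.67 and 8.14, with intact values of 9.80 to 9.93. Its 3 arrays with IAA lay above every decapitated and below every intact array. In the TBL family, which acetylates wall polysaccharides, 6 of 22 members were raised and 1 was lowered, while 1 was higher and 5 were lower with IAA than in intact plants. TBL34 (AT2G38320) went from 2.73, 3.45 and 3.03 to 7.20, 7.14 and 6.75 (3.96 ± 0.31), and TBL30 fell by 0.89. With array medians subtracted 2 members of the family were lowered.

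Most listed genes of cell division were raised and none was lowered, beside 9.91% raised and 10.9% lowered of all named genes. Of 16 measured genes of kinetochore, spindle and chromosome segregation 12 were raised, with a median of 1.2 against -0.04 for all probe sets, and 10 to 12 members were called raised when any 1 array was left out. None of the 16 differed by the test between IAA and intact, where their median was -0.44. AUR2 (AT2G25880), an Aurora kinase of the spindle and cell plate, read 4.94, 4.17 and 5.01 without IAA and 7.47, 6.83 and 7.39 with it (2.52 ± 0.28, adjusted p = 9.5e-06). AUR1 (AT4G32830) rose by 1.67. KINESIN-12B (AT3G23670), a motor of the phragmoplast that builds the cell plate, went from 4.82, 4.51 and 5.57 to 6.56, 6.38 and 6.98 (1.67 ± 0.31). The chromosome proteins 3xHMG-box2 and 3xHMG-box1 rose by 1.96 and 1.2.

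Of 7 measured genes listed under DNA replication, among them the cell cycle gene FBL17, 5 were raised, against 9.91% of all named genes. The median of 0.91 is the value of FBL17. PRL (AT4G02060), a subunit of the replicative helicase, went from 5.65, 6.02 and 6.42 to 7.74, 7.98 and 8.25 (1.96 ± 0.26), close to the intact values of 7.53 to 8.26. ICU2 and POLA3, subunits of the polymerase that primes new strands, rose by 1.22 and 1.1, and FBL17, an F-box protein that removes inhibitors of the cell cycle, by 0.91. ICU2 lost its call without IAA replicate 3 (adjusted p = 0.063) and POLA3 without decapitated replicate 1 (0.054). Of the 7, 3 were called without the one or the other of these arrays and 2 with the 6 arrays alone. FBL17 was among the calls lost with the 6 arrays alone (adjusted p = 0.065). Of 4 histone H2B genes 3 were raised, HTB2 by 1.06, HTB1 by 0.68 and HTB11 by 0.65. Only HTB1 was still called without IAA replicate 1, without decapitated replicate 2 or in the fit of the 6 arrays.

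Genes for proteins that shape the cell's skeleton moved in both directions, beside 9.91% raised and 10.9% lowered of all named genes. Of 9 tubulin and actin genes 6 were raised and 1 was lowered. TUB5 (AT1G20010) went from 7.78, 7.97 and 9.09 to 10.36, 10.49 and 10.94 (2.32 ± 0.39) and TUA6 (AT4G14960) from 11.44, 11.87 and 12.08 to 12.90, 12.91 and 13.08 (1.17 ± 0.12). TUA1, an alpha tubulin known from pollen, fell by 0.53, a call lost without IAA replicates 1 or 3, without decapitated replicates 1 or 2 and with the 6 arrays alone (adjusted p = 0.058). ACT11 rose by 1.12, a call lost without IAA replicates 1 or 2 or decapitated replicates 2 or 3 (adjusted p up to 0.12). The TRM proteins, which help to place microtubule arrays, gave 4 raised and 2 lowered of 14. TRM31 rose by 2.06, whereas TRM26 (AT2G17550) fell from 7.27, 6.95 and 7.23 to 4.33, 4.74 and 4.53 (-2.62 ± 0.20) and TRM22 (AT1G67040) from 8.13, 8.29 and 8.31 to 6.40, 6.14 and 6.29 (-1.97 ± 0.21). Without IAA replicate 2, and with the 6 arrays alone, 1 member was raised, and 2 were raised without IAA replicates 1 or 3 or decapitated replicate 1.

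Of 15 measured IQD genes, whose proteins bind calmodulin and microtubules, 5 were raised and 1, at background, was lowered. The shares over all named genes were 9.91% raised and 10.9% lowered. Their median was -0.04, and 8 lay below 3.5 in all 6 arrays. When any 1 array was left out 4 were raised, since IQD22 lost its call each time (adjusted p up to 0.116). IQD18 lost its call with the 6 arrays alone (0.075). IQD30 (AT1G18840) read 7.39, 7.38 and 7.95 without IAA and 9.09, 8.74 and 8.63 with it (1.24 ± 0.16), and IQD31 rose by 0.75. NET proteins link actin to membranes, and of 10 measured 4 were lowered and 1 was raised. NET1C (AT4G02710) fell from 7.02, 7.70 and 8.40 to 6.12, 5.48 and 5.53 (-2.0 ± 0.42). The other NET calls did not hold in every fit, and the number lowered was 1 without IAA replicate 3, and 2 without IAA replicate 1 or decapitated replicate 3. The raised member was lost without decapitated replicate 1. SP1L2 (AT1G69230), of the SPIRAL1 family of microtubule proteins, read 10.75, 10.16 and 9.38 with IAA against 8.88, 8.53 and 9.13 without it (1.25 ± 0.34). Its IAA values all lay under the intact values of 11.95 to 12.49, and the call was lost without IAA replicate 1 (adjusted p = 0.074) and with the 6 arrays alone (0.1).

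**Figure D3:**
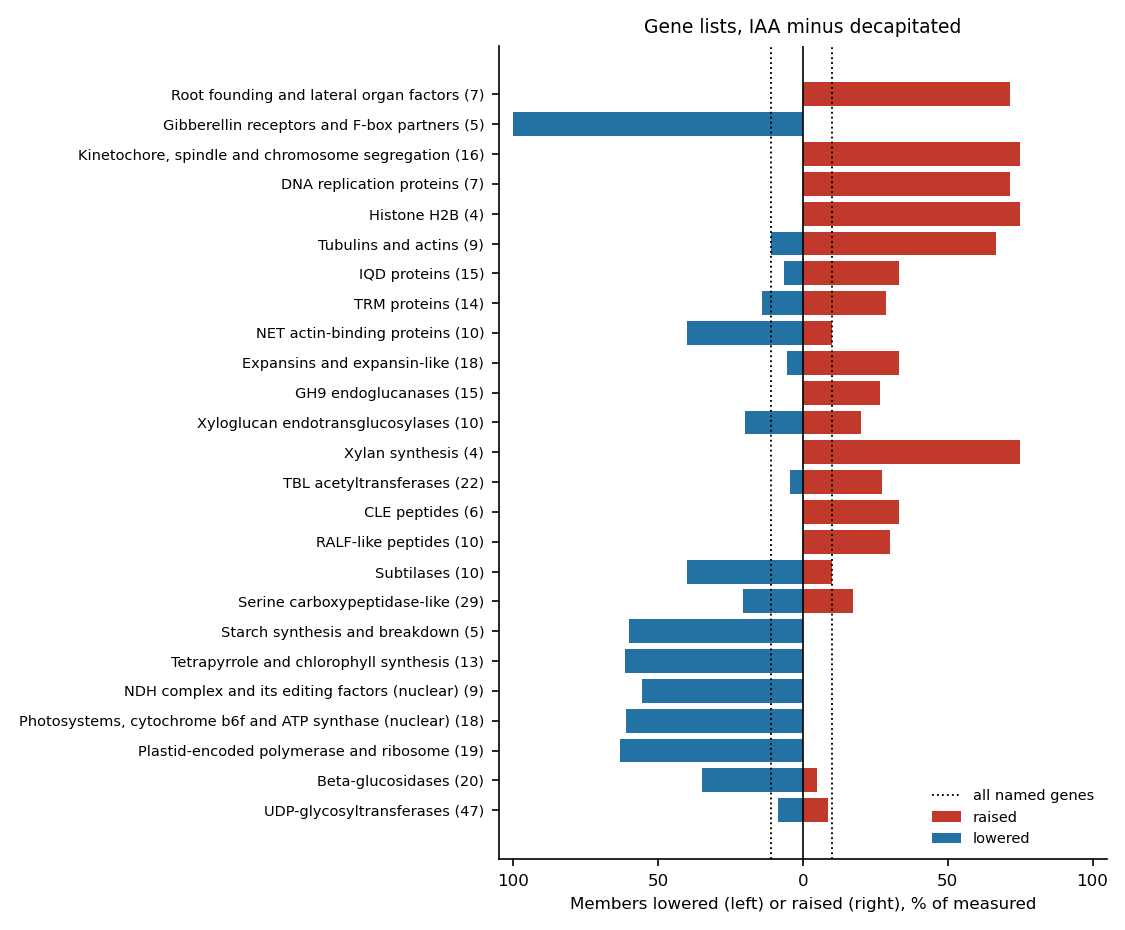
Share of the measured members of 25 gene lists that were raised (right) or lowered (left) with IAA, in percent, with the number measured in brackets. Dotted lines mark the shares over all named genes, 9.91% raised and 10.9% lowered. Lists of root founding and lateral organ factors, division and xylan synthesis lie to the right. Those of gibberellin perception, starch and plastids lie to the left.

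Signals of the vascular tissue were among the raised genes, where 9.91% of all named genes were raised. Of 5 measured genes of the list of cambium and vascular patterning 3 were raised and 2 not called. At a change of at least 1 the number raised was 1. CLE44 (AT4G13195), whose peptide from the phloem keeps cambium cells undifferentiated, read 7.70, 7.44 and 7.24 without IAA and 10.58, 10.21 and 10.63 with it (3.01 ± 0.21). CLE41 (AT3G24770), which encodes the same active peptide, stood at -0.29 (adjusted p = 0.25). CLE26 (AT1G69970) went from 2.57, 2.39 and 2.47 to 5.37, 4.76 and 4.24 (2.31 ± 0.23), and these were the 2 of 6 measured CLE genes that were called. PHV (AT1G30490), a homeodomain factor of vascular and organ polarity, rose by 0.86 and OPS (AT3G09070), a protein of early phloem, by 1.19. MOL1 (AT5G51350), a receptor kinase that limits cambium activity, rose by 0.60, a call lost without any single array other than decapitated replicate 3 (adjusted p up to 0.16) and with the 6 arrays alone (0.2). Of 10 RALF-like peptide genes 3 were raised, led by RALFL34 (AT5G67070), which acts in lateral root initiation and went from 9.02, 9.16 and 9.32 to 11.06, 10.76 and 11.01 (1.78 ± 0.11). Its intact values of 12.03 to 12.07 lay above both groups.

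All 5 measured genes of gibberellin perception were lowered, against 10.9% of all named genes. Gibberellin binds GID1 receptors, which then bring DELLA growth repressors to the F-box proteins SLY1 and SLY2 for destruction. GID1B (AT3G63010) read 8.48, 8.45 and 8.55 without IAA and 5.0, 6.17 and 5.05 with it (-3.08 ± 0.53). GID1A (AT3G05120) read 11.09, 11.25 and 11.60, then 9.18, 9.53 and 9.31 (-1.98 ± 0.17, adjusted p = 7.2e-07). In both receptors the groups did not overlap. GID1C (AT5G27320) read 6.19, 6.39 and 6.63, then 5.32, 5.12 and 5.22 (-1.18 ± 0.30). SLY2 (AT5G48170) went from 4.59, 5.17 and 5.98 to 2.69, 3.00 and 3.34 (-2.24 ± 0.31), and SLY1 (AT4G24210) from 9.44, 9.0 and 9.29 to 8.75, 8.41 and 8.41 (-0.72 ± 0.23). The SLY1 call was lost without IAA replicates 2 or 3 or decapitated replicates 1 or 3 (adjusted p up to 0.115). Against intact plants none of the 5 was called, with a median of -0.47.

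The 2 measured type-A response regulators, which damp cytokinin signalling, moved in opposite directions. ARR15 (AT1G74890) went from 4.86, 5.10 and 5.45 to 8.32, 7.42 and 7.92 (2.75 ± 0.32). RR16 (AT2G40670) went from 6.31, 5.88 and 6.71 to 2.58, 2.49 and 2.59 (-3.75 ± 0.28, adjusted p = 9.9e-08). Every IAA array of RR16 was at background, as were the intact arrays at 2.62 to 2.83. Other response regulators measured, RR18, RR19, RR22 and RR23, lay below 3.5 in all 6 arrays.

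**Figure D4:**
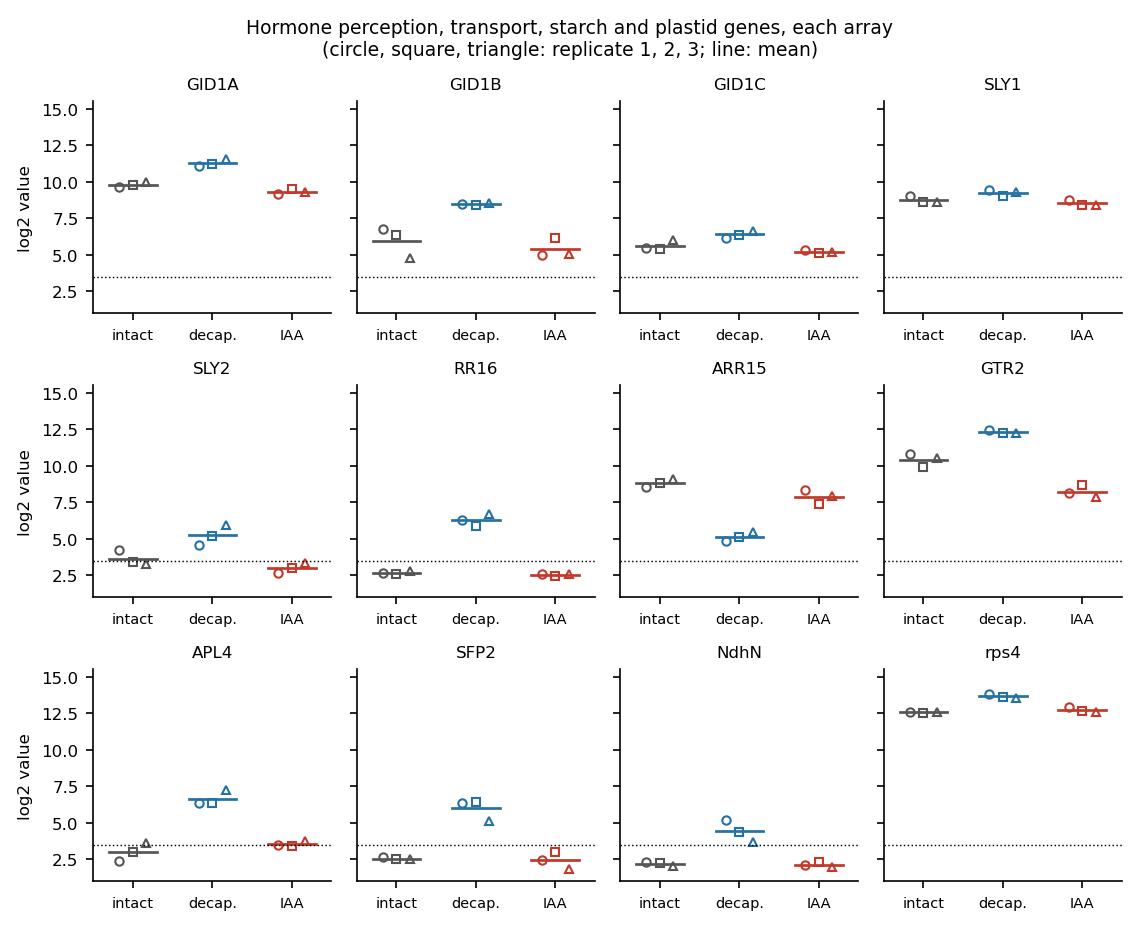
Log2 value of 12 genes in each array of intact, decapitated and decapitated plants with IAA, with symbols for replicates 1, 2 and 3, a line for the mean and a dotted line at 3.5. The gibberellin genes GID1A, GID1B, GID1C, SLY1 and SLY2, and RR16, GTR2, APL4, SFP2, NdhN and rps4, are lower with IAA than without it, ARR15 is higher, and GTR2 with IAA also lies below the intact arrays.

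Of the 12 named genes with the largest falls 8 had a mean below 3.5 with IAA. AT5G50915 read 9.0, 8.86 and 8.30 without IAA and 1.80, 1.78 and 1.82 with it (-6.92 ± 0.30, adjusted p = 1.8e-10). AT1G80130 read 9.24, 8.99 and 8.95, then 2.52, 2.41 and 2.46 (-6.60 ± 0.16). M17 (AT2G41260), a protein of the late embryogenesis abundant type, read 7.93, 8.19 and 7.39, then 2.34, 2.31 and 2.36 (-5.50 ± 0.31). In all 3 the IAA arrays lay close to the intact arrays. AT4G33420 fell from 10.90, 10.57 and 9.76 to 5.15, 7.15 and 5.03 (-4.63 ± 0.64) and remained above the intact values of 2.81 to 3.1, as did the subtilase gene ATSBT5.2 (AT1G20160), which read 9.99, 10.57 and 10.68 without IAA, 8.23, 8.22 and 8.12 with it and 4.49 to 7.0 when intact.

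Some genes fell below both other groups. GTR2 (AT5G62680), a transporter of glucosinolate defence compounds, read 12.46, 12.28 and 12.24 without IAA, 8.18, 8.69 and 7.84 with it and 10.79, 9.92 and 10.57 when intact (-4.09 ± 0.21, and -2.19 against intact). GTR1, its close relative, stood at -0.59 (adjusted p = 0.26). AT1G03020 read 9.43, 8.27 and 9.31 without IAA, 6.79, 4.95 and 4.08 with it and 8.98 to 9.19 when intact (-3.73 ± 0.56). AT3G46880 read 6.73, 6.63 and 7.11 without IAA and 4.56, 4.16 and 3.68 with it, and AT1G20180 read 5.55, 4.65 and 5.39, then 2.53, 2.57 and 2.48. In these 4 genes each IAA array lay under all 6 arrays of intact and decapitated plants.

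Among the lowered genes with a symbol whose intact values all lay within 1 of the decapitated mean, receptor kinases were present. PSY1R (AT1G72300), a receptor tied to the growth peptide PSY1, read 7.79, 7.75 and 7.65 without IAA and 6.24, 6.59 and 5.55 with it (-1.60 ± 0.29), with intact values of 6.77 to 7.72. GSO1 (AT4G20140), a receptor for peptides that close the Casparian strip, read 5.36, 5.64 and 6.75, then 4.06, 5.07 and 4.08 (-1.51 ± 0.35), and lost its call with the 6 arrays alone (adjusted p = 0.11). UBC16, of the ubiquitin-conjugating enzymes, read 8.85, 8.61 and 8.83 without IAA and 8.00, 7.40 and 7.43 with it (-1.15 ± 0.16). Its intact values of 7.84 to 7.92 lay within the range of the IAA values and below every decapitated one. The protease gene NANA (AT3G12700) fell from 11.81, 11.84 and 11.68 to 10.90, 10.91 and 10.76 (-0.92 ± 0.21). Its intact values of 11.22 to 11.66 lay between the groups, and it was not called against intact plants (-0.62, adjusted p = 0.093). Outside this set, the innate immune receptor gene EFR (AT5G20480) read 4.84, 4.42 and 5.94 without IAA and 2.46 to 2.51 with it (-2.59 ± 0.25), and SPT (AT4G36930), a bHLH factor that restrains growth, fell by 2.90.

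Of 5 measured starch genes 3 were lowered and none was raised, against 10.9% lowered and 9.91% raised of all named genes. APL4 (AT2G21590), a large subunit of the enzyme that makes the glucose donor of starch, read 6.36, 6.34 and 7.25 without IAA and 3.49, 3.44 and 3.77 with it (-3.08 ± 0.36). SBE2.2 (AT5G03650), a starch branching enzyme, went from 8.90, 8.94 and 8.68 to 8.04, 7.90 and 7.72 (-0.96 ± 0.19). APL3 fell by 1.01, a call lost without any single array other than decapitated replicate 3 (adjusted p up to 0.12). The sugar carriers SFP2 (AT5G27360) and SFP1 (AT5G27350), whose loci carry neighbouring codes, fell by 3.56 and 1.18. SFP2 read 6.39, 6.44 and 5.15, then 2.43, 3.01 and 1.87, while SFP1 read 10.80, 10.87 and 10.81, then 9.27, 10.00 and 9.68. TMT1, a sugar carrier of the vacuole, rose by 1.06, a call lost without IAA replicate 2 (adjusted p = 0.052), without decapitated replicate 1 and with the 6 arrays alone. Of 14 SWEET sugar exporter genes 10 lay below 3.5 throughout, among them SWEET7 (AT4G10850), the 1 member called, which was lowered by a small amount (-0.35 ± 0.08) and lost its call with the 6 arrays alone (adjusted p = 0.19). SWEET11 (AT3G48740) read 4.36, 5.33 and 2.09 without IAA and 2.01, 2.01 and 2.02 with it and was not called (-1.91 ± 0.74, adjusted p = 0.074). SWEET17 (0.03), SWEET2 (0.04) and SWEET16 (0.27) were not called either.

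Genes of plastid functions were lowered or not called, and none of those listed was raised. The shares over all named genes were 10.9% lowered and 9.91% raised. Of 19 genes encoded in the plastid for its own polymerase and ribosome 12 were lowered, with a median of -0.82, and over all 69 plastid-encoded genes 24 were lowered and 0 raised, with a median of -0.61. rps4, a ribosomal protein gene, read 13.84, 13.64 and 13.55 without IAA and 12.91, 12.67 and 12.62 with it (-0.94 ± 0.17), and rps18 went from 12.76, 12.62 and 12.61 to 11.72, 11.63 and 11.71 (-0.98 ± 0.19). rpoB, a polymerase subunit gene, fell by 1.25 and lost its call with the 6 arrays alone (adjusted p = 0.089). The changes were small, and 2 of the 12 exceeded 1. Against intact plants none of the 19 was called and the median was 0.37.

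Of 13 nuclear genes of tetrapyrrole and chlorophyll synthesis 8 were lowered, with a median of -0.62, where 10.9% of all named genes were lowered. HEME2 (AT2G40490) went from 8.60, 8.62 and 8.67 to 7.82, 7.95 and 7.74 (-0.79 ± 0.13) and LIL3:1 (AT4G17600), a light-harvesting-like protein needed for chlorophyll supply, from 9.62, 9.13 and 8.40 to 7.71, 7.67 and 7.42 (-1.45 ± 0.35). CHLI2, a subunit of magnesium chelatase, fell by 1.40, a call lost without IAA replicates 2 or 3 or decapitated replicate 1 (adjusted p up to 0.074). PORB, an enzyme of the light-dependent step, stood at 0.16 (adjusted p = 0.89). The NDH complex carries electrons around photosystem I, and of 9 nuclear genes for its subunits and editing factors 5 were lowered. NdhN (AT5G58260) read 5.2, 4.39 and 3.72 without IAA and 2.09, 2.30 and 2.01 with it (-2.30 ± 0.40), and CRR41 (AT1G51100) went from 6.73, 6.44 and 6.16 to 5.44, 4.42 and 4.71 (-1.59 ± 0.23). This count was 3 without IAA replicate 2 and 3 with the 6 arrays alone.

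Of 18 nuclear genes of the photosystems, cytochrome b6f and ATP synthase 11 were lowered, with a median of -0.65. The share lowered over all named genes was 10.9%. The largest falls were in assembly factors and regulators, LPA2 (AT5G51545) by 1.08, PAM68 (AT4G19100) by 0.96 and PGRL1B (AT4G11960) by 0.89. LPA2 read 8.71, 8.67 and 8.65 without IAA and 7.84, 7.35 and 7.60 with it. ATPC1 (AT4G04640), a subunit of the ATP synthase, went from 12.18, 11.99 and 11.75 to 11.09, 11.10 and 11.21. The antenna genes LHCB4.1, LHCB4.2 and LHCB4.3 stood at -0.45, -0.21 and 0.40 and were not called. The count of 11 was 7 without IAA replicate 2, 6 without IAA replicate 3 or decapitated replicate 1, 5 without decapitated replicate 2 and 6 with the 6 arrays alone.

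Protease and hydrolase families held changes in opposite directions within one family. Calls both ways were common, with 9.91% of all named genes raised and 10.9% lowered. Of 10 subtilases 4 were lowered and 1 was raised. SBTI1.1 (AT1G01900) read 3.38, 2.36 and 2.28 without IAA and 8.31, 7.63 and 6.60 with it (4.84 ± 0.63), while SBT4.12 (AT5G59090) read 8.36, 7.57 and 7.81, then 2.59, 3.88 and 2.38 (-4.97 ± 0.38). In both genes the IAA and the intact values overlapped, and 2 members of the family were lowered with the 6 arrays alone. Of 29 serine carboxypeptidase-like genes 5 were raised and 6 lowered, and the 6 became 3 without decapitated replicate 1 and with the 6 arrays alone. scpl20 (AT4G12910) rose from 7.05, 6.51 and 6.77 to 8.47, 8.62 and 8.27 (1.68 ± 0.15) and scpl31 (AT1G11080) fell from 11.44, 11.42 and 11.52 to 8.36, 8.40 and 8.05 (-3.19 ± 0.44). Of 20 beta-glucosidases 7 were lowered and 1 was raised, or 11 and 1 with array medians subtracted. BGLU46 (AT1G61820), which acts on precursors of lignin, fell from 12.32, 12.09 and 11.37 to 9.74, 10.28 and 9.75 (-2.01 ± 0.38) and BGLU40 (AT1G26560) fell by 2.09.

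Sulphur and methionine genes also split. MGL (AT1G64660), which breaks methionine down, fell from 8.75, 8.77 and 8.99 to 6.42, 6.0 and 6.19 (-2.64 ± 0.32). HMT-1 (AT3G25900), which makes methionine from homocysteine, rose from 6.87, 7.55 and 7.11 to 8.47, 9.01 and 9.0 (1.65 ± 0.22), above the intact values of 6.55 to 6.65. SUFE2 (AT1G67810), an activator of sulphur release for iron-sulphur clusters, rose from 5.21, 4.66 and 5.46 to 7.84, 7.80 and 8.30 (2.87 ± 0.49). APS3, an enzyme of sulphate activation, rose by 2.03, a call lost without IAA replicate 2 (adjusted p = 0.053) or decapitated replicate 1 (0.05). In this list of 7 genes 3 were raised and 1 was lowered, against 9.91% and 10.9% of all named genes.

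Plants of the same replicate number were treated at the same time, and the differences within each number can be read separately. For the 50 genes with a symbol and a large change, 25 each way, the sign within a number is fixed by their choice, since their groups do not overlap, and the sizes are given as a description. Among the raised genes PUCHI differed by 1.75, 3.84 and 4.14 in numbers 1, 2 and 3 and LBD16 by 4.44, 6.25 and 6.62. WNK9 (AT5G28080), a protein kinase, differed by -1.97, -1.0 and -4.63, since its decapitated values of 4.14, 3.15 and 6.81 were scattered, and it lost its call with the 6 arrays alone (adjusted p = 0.17).

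**Figure D5:**
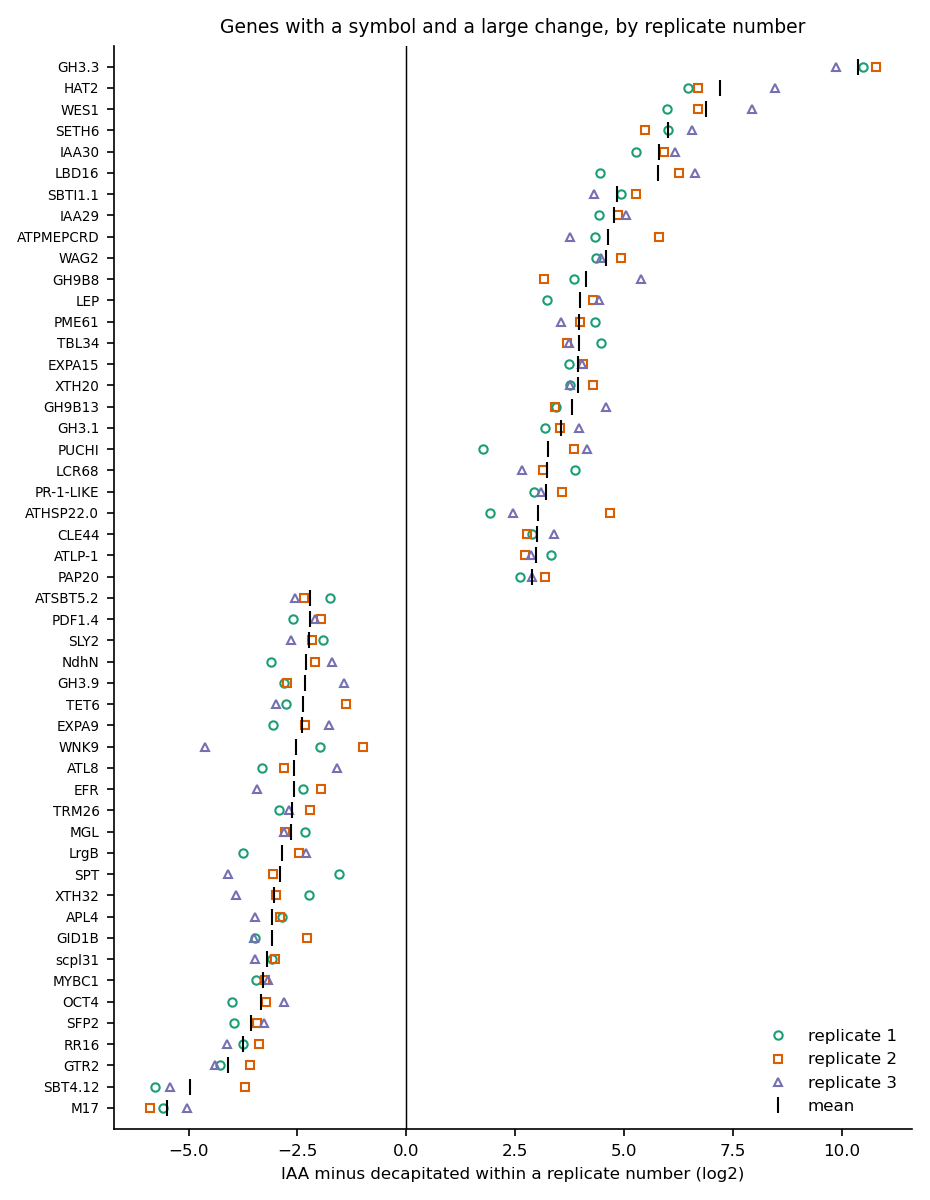
Difference between the IAA and the decapitated array of each replicate number, on the log2 scale, for the 25 raised and 25 lowered genes with a symbol and the largest changes, with a bar for the mean. The genes were chosen with groups that do not overlap, so 1 sign in all numbers follows from the choice, and WNK9 and PUCHI show a wide spread.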

How the data were processed

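Total RNA, 4 µg per sample, was labelled with biotin and hybridised to ATH1 arrays, per the labels' protocols. The authors deposited 1 table of log2 values for 22810 probe sets, and RMA, GCRMA and R 3.2.2 are listed in the submitters' processing notes without their roles. These values were used without further scaling. After 64 control probe sets were left out, 22746 were tested. Of these 13513 name 1 gene, 503 several and 8730 none in the probe table, and 13436 of the first were found in RefSeq by identifier (13286 genes). A gene is represented by its brightest probe set that names it alone. Arrays have no sequencing depth, and precision depends on how many arrays a group has.

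The linear models of limma 3.58.1 (R 4.3.3) were fitted to group means of all 21 arrays, with 14 degrees of freedom left for residuals and 1.03 from the prior. P-values were adjusted by Benjamini-Hochberg over all probe sets, and 0.05 was the threshold. The script was tested on simulated data. Arrays of the same replicate number were treated together per the labels, and their deviations correlated at 0.398, 0.194 and 0.441 for numbers 1, 2 and 3 between the groups, so the block by number was fitted as an alternative. Other alternatives are given in the closing section. Members and gene lists were chosen with earlier results of these data known. Named genes were the 12 largest changes each way with groups that did not overlap. Up to 4 called members of a list each way, or the 2 with the smallest p, were added. Also named were 6 each way among genes whose intact values all lay within 1 of the decapitated mean. A further 25 and 10 each way with a symbol, and other list members, were named after their values were seen. Of 36 gene lists written as locus codes 25 had a measured member, and 43 lists were built from symbols. The result of 1 of these lists is not reported here.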

Additional observations from a re-analysis of the deposited data

How the results depend on the processing

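With the replicate block 2969 probe sets were raised and 3402 lowered. Among the 233 named genes followed across the fits, the block ended the call of SP1L3 (adjusted p = 0.0502). It added those of RCA and DFR and changed no other call among the 233. Some further list members gained a call with the block, and 2 of 3 IAA glucosylation genes were lowered. The numbers raised and lowered were 1295 and 1412 over probe sets that name 1 gene, which are fewer by construction, and 1379 and 1054 at a change of at least 1. With array medians subtracted 4836 were lowered, and with an intensity trend and robust moderation 4201. Leaving out 1 array gave 1999 to 2459 raised and 1988 to 3775 lowered, and the cause of these movements was not tested. Fits of the 6 arrays alone, a second quantile normalization and leaving out dim probe sets stayed within 1.5 times. No named gene reversed. Of 221 called named genes 152 kept their call under all alternatives other than the change of at least 1. Of the rest 49 lost it with the 6 arrays alone and 48 without 1 or more arrays, with some in both counts. SPR1 and SP1L3 lost it with array medians subtracted, and genes including TET10, UGT71B8, IQD22 and YUC4 under the second quantile normalization. List medians changed sign in 2 of 49 lists with array medians subtracted, in 8 under the second quantile normalization and in 8 of 46 with dim probe sets left out. The 3 arrays per group, the probe sets at background and the 8730 probe sets without a gene name limit what can be told.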

Other observations

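Smaller families outside the sections above also held called genes, where 9.91% of all named genes were raised and 10.9% lowered. In the autophagy list of 9 genes ATG8E (AT2G45170) fell from 10.20, 10.46 and 10.15 to 9.33, 9.49 and 9.42, ATG8B by 0.78 and ATG8F by 0.59, while ATG8G (AT3G60640) rose from 8.39, 8.60 and 8.52 to 9.36, 8.88 and 9.36. ATG8B lost its call with the 6 arrays alone (adjusted p = 0.056). Of 7 bHLH factors of the iron response 2 were lowered, bHLH104 (AT4G14410) from 11.84, 11.76 and 11.84 to 10.69, 10.32 and 10.33 (-1.37 ± 0.14) and bHLH115 (AT1G51070) by 0.67. Among 15 tetraspanins, which organise plasma membrane domains, 3 were raised and 3 lowered, or 5 lowered with array medians subtracted. TET2 (AT2G19580) rose from 8.59, 7.94 and 7.69 to 9.75, 9.76 and 9.65 (1.65 ± 0.22) and lay above its intact values of 8.36 to 9.12, while TET6 (AT3G12090) fell by 2.38. The factor bZIP44 (AT1G75390) rose from 8.06, 7.49 and 8.13 to 10.23, 9.60 and 9.57 (1.91 ± 0.24).

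Neighbouring genes were set side by side. Of 5818 pairs of measured genes that are next to each other in the RefSeq order, 316 had both genes called, and 185 of these (58.5%) moved the same way, where 50.1% of all possible pairs of called genes did. In 3 pairs both genes moved by at least 3, and all 3 moved the same way. These were AT1G12070 (3.1) with AT1G12080 (7.71), AT4G30450 (-5.56) with AT4G30460 (-3.80), and AT5G50120 (4.78) with AT5G50130 (7.4).

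Probe sets at background carried few raised calls and more lowered ones. Of 7349 probe sets below 3.5 in all 6 arrays 26 were raised and 269 lowered, with a median of -0.05 and no called fall beyond -1.07. The other 15397 gave 2482 raised and 2428 lowered. Among 923 genes annotated as pseudogenes limma called 0 raised and 47 lowered (5.09%). Of 12293 protein-coding genes 10.7% were raised and 11.4% lowered. At an unadjusted p below 0.05, 3 of the 923 pseudogenes were higher and 401 lower. At that threshold 1786 of the 12293 protein-coding genes were higher and 2846 lower.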
